A study of Mus musculus with 18 samples.

Results

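The citric acid cycle enzymes described here are 9 genes, *Cs*, *Idh3a*, *Ogdh*, *Dlst*, *Sucla2*, *Suclg1*, *Suclg2*, *Fh1* and *Mdh2*. The rule names the genes and uses no measured value, but the set was chosen with earlier results of these data known. The genes were matched by Ensembl identifier among the 22524 genes counted in each library. All 9 passed the filter on low counts and were among the 13353 genes tested. The question is how the transcripts of the cycle differ between the livers of A226Y and WT mice. A226Y mice are heterozygous for a knock-in allele of *Rps2*, a protein of the small ribosomal subunit, in which an alanine is changed to tyrosine and translation makes more errors. The knock-in allele was built in 129/Sv cells and bred onto C57BL/6. It carries a transcriptional stop between loxP sites, which ubiquitously expressed Cre (CMV-Cre) removes in some cells only, so each A226Y mouse is a mosaic of cells with the expressed A226Y allele and cells in which that allele is silent. The controls (WT) were wild-type for *Rps2* and also carried CMV-Cre. All 18 mice were females of 15 months on a C57BL/6 background, 10 A226Y and 8 WT, and each gave 1 library of whole-liver RNA.

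The citric acid cycle runs in the mitochondrial matrix. It joins acetyl-CoA to oxaloacetate, releases the carbon as carbon dioxide in oxidative decarboxylations, and passes electrons to the respiratory chain on the way back to oxaloacetate. In hepatocytes it also feeds biosynthesis, since citrate leaves for fatty acid and cholesterol synthesis and malate or oxaloacetate for glucose synthesis. It is refilled by pyruvate carboxylation and by amino acid and odd-chain fatty acid breakdown.

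The total count per library was between 23850565 and 62126131 in the A226Y mice and between 25869192 and 34918732 in the WT mice, and each member gene had at least 1142 counts in every library. As a check of the labels, *Rps2* did not overlap between the genotypes. It ran from 46.9 to 83.0 CPM in the A226Y mice and from 103.9 to 143.1 CPM in the WT mice, where CPM is the count relative to the TMM-scaled total of the library, with a log2 fold change of −0.73 (SE 0.11; edgeR quasi-likelihood, adjusted p = 0.000772). The hepatocyte markers were present in all libraries, and the albumin gene *Alb* alone took between 5.10% and 12.9% of the counts. The 2 extremes of *Alb* were A226Y mouse 29 and WT mouse 33, whose libraries also had the lowest mean correlation with the others (0.963 and 0.969, against 0.976 to 0.984 for the rest). Results for the members are therefore also given without these 2 libraries. Nothing in the labels names a batch.

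Over all tested genes, an adjusted p under 0.05 was reached by 1910 (14.3%), which are the genes called here. Of the tested genes, 971 (7.27%) were called higher in A226Y and 939 (7.03%) were called lower. Of the 9 members, 4 were called. *Idh3a*, *Ogdh* and *Dlst*, which belong to the 2 enzymes that release carbon dioxide in the cycle, were higher by 17.1% to 25.2%. *Suclg2*, the GTP-forming subunit of the next enzyme, was lower (fell by 20.8%). *Cs*, *Sucla2*, *Suclg1*, *Fh1* and *Mdh2* were not called. The median log2 fold change was 0.19 over the members and −0.0044 over all tested genes. No member was called when 4 surrogate variables, computed covariates for variation shared among genes, were added to the fit, which called 50 genes in all. The second of these variables ran from −0.11 to 0.52 in the A226Y mice and from −0.44 to 0.23 in the WT mice. It thus partly followed genotype, so this fit can also remove part of a genotype difference. In bulk liver, a lower level from fewer expressing cells and one from less RNA per cell cannot be told apart.

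**Figure D1:**
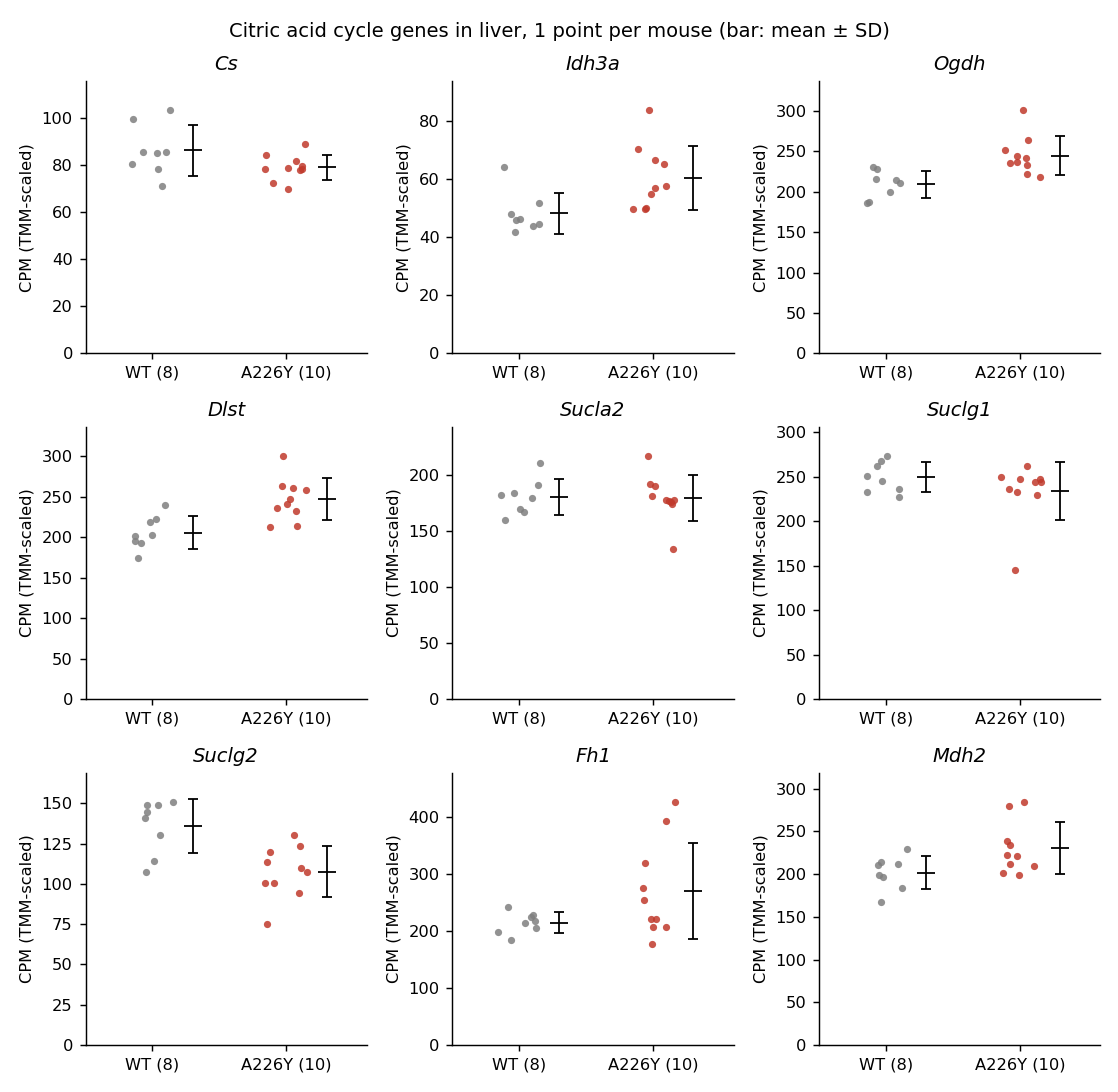
Level of each of the 9 genes in CPM (vertical axis, linear and starting at 0) in 8 WT and 10 A226Y mice, 1 point per mouse, with the mean and SD beside the points. All 10 A226Y mice lie above the WT mean for *Idh3a*, *Ogdh* and *Dlst* and below it for *Suclg2*, while *Fh1* spreads from 177.4 to 426.3 CPM in A226Y mice.

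The first enzyme, citrate synthase, condenses acetyl-CoA with oxaloacetate and is encoded by *Cs* (ENSMUSG00000005683, chr10:128337734-128362479 on GRCm38, plus strand). *Cs* was at 69.6, 78.4 and 89.0 CPM (lowest, median and highest) in the A226Y mice and at 71.1, 85.4 and 103.3 CPM in the WT mice. The groups overlapped, although 9 of the 10 A226Y values were under the WT mean. The log2 fold change was −0.13 (SE 0.07, 95% interval −0.27 to 0.02, adjusted p = 0.22, edgeR quasi-likelihood), so a difference was not shown. It was −0.16 without mice 29 and 33 together (adjusted p = 0.0986) and −0.04 with surrogate variables (adjusted p = 0.865). The 2 WT mice above every A226Y mouse were mice 13 (99.6 CPM) and 24 (103.3 CPM).

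*Idh3a* (ENSMUSG00000032279, chr9:54586334-54604661, plus strand) encodes the catalytic subunit of the NAD-dependent isocitrate dehydrogenase, which makes 2-oxoglutarate. Its level was 49.5, 57.2 and 83.6 CPM in the A226Y mice and 41.7, 46.1 and 64.1 CPM in the WT mice. Each of the 10 A226Y mice exceeded the WT mean, 4 exceeded every WT mouse, and WT mouse 13, at 64.1 CPM, stood alone at the upper end of its group. *Idh3a* was higher in A226Y with a log2 fold change of 0.32 (SE 0.10, 95% interval 0.11 to 0.54, adjusted p = 0.0417), and an exact permutation test of the log2 CPM gave p = 0.0102. This call was the least stable of the 4. It was lost in 10 of the 18 fits that left out 1 mouse (without A226Y mice 7, 11, 29 or 32 or WT mice 4, 14, 21, 24, 28 or 33; adjusted p up to 0.0794) and without mice 29 and 33 together (0.27, adjusted p = 0.082).

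*Idh3b* and *Idh3g*, which encode the other subunits of the same enzyme, were not called. *Idh3b* ran from 120.5 to 178.7 CPM in A226Y and from 143.7 to 211.2 CPM in WT mice, with a log2 fold change of −0.14 (SE 0.08, adjusted p = 0.251). *Idh3g* had a log2 fold change of −0.02 (SE 0.07, adjusted p = 0.837). Whether *Idh3a* differed from its partner subunits in its change was not tested.

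*Ogdh* and *Dlst* encode the first and second components of the 2-oxoglutarate dehydrogenase complex, the thiamine-dependent decarboxylase and the lipoate-bearing succinyltransferase, which together turn 2-oxoglutarate into succinyl-CoA. Both rose in the A226Y mice, by 17.1% and 19.9%. *Ogdh* (ENSMUSG00000020456, chr11:6291633-6356642, plus strand) was at 218.6, 239.3 and 300.9 CPM in A226Y and at 186.6, 212.5 and 230.7 CPM in WT mice. Of the 10 A226Y mice, 8 were above every WT mouse. The log2 fold change of *Ogdh* was 0.23 (SE 0.07, 95% interval 0.09 to 0.37, adjusted p = 0.0287; exact permutation p = 0.000754).

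*Dlst* (ENSMUSG00000004789, chr12:85110833-85134845, plus strand) was at 213.1, 244.6 and 300.6 CPM in A226Y and at 174.4, 202.0 and 240.5 CPM in WT mice. Each of the 10 A226Y mice exceeded the WT mean, and 6 exceeded every WT mouse. The log2 fold change was 0.26 (SE 0.07, 95% interval 0.11 to 0.42, adjusted p = 0.0238; exact permutation p = 0.00187). *Dlst* was called with any 1 mouse left out (adjusted p at most 0.0479) and without mice 29 and 33 together (0.24). *Ogdh* was called without these 2 mice together (0.22, adjusted p = 0.022), but missed the threshold narrowly without A226Y mouse 32 or WT mouse 14, 21 or 33 (adjusted p of 0.0509, 0.0597, 0.0559 and 0.0511).

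The third component of this complex, dihydrolipoamide dehydrogenase, is shared with other dehydrogenase complexes. Its gene *Dld* averaged 188.0 ± 18.5 CPM in A226Y (SD, n = 10) and 171.9 ± 11.6 CPM in WT (SD, n = 8), with a log2 fold change of 0.13 (SE 0.07, adjusted p = 0.202), and 9 of 10 A226Y mice were above the WT mean. Without A226Y mouse 29, the lowest A226Y value at 144.6 CPM, *Dld* was called (0.17, adjusted p = 0.0348). Within a library, the ratio of *Ogdh* to *Dlst* counts did not differ detectably between genotypes. It was 0.814, 1.01 and 1.14 (lowest, median, highest) in A226Y and 0.839, 1.04 and 1.19 in WT mice. The difference in the log2 ratio was −0.03 (95% interval −0.20 to 0.13; exact permutation p = 0.66, also 0.66 after adjustment over the 5 ratios compared).

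Succinyl-CoA synthetase splits succinyl-CoA and stores its energy in a nucleoside triphosphate. The alpha subunit, encoded by *Suclg1*, pairs either with the ATP-forming beta subunit of *Sucla2* or with the GTP-forming beta subunit of *Suclg2*. *Suclg2* (ENSMUSG00000061838, chr6:95473009-95718800, minus strand) was at 75.2, 108.8 and 130.3 CPM in A226Y and at 107.4, 142.7 and 151.0 CPM in WT mice. Each of the 10 A226Y mice was below the WT mean, 4 were below every WT mouse, and 6 of 8 WT mice were above every A226Y mouse. *Suclg2* fell by 0.34 on the log2 scale (SE 0.09, 95% interval −0.53 to −0.14, adjusted p = 0.0227, edgeR quasi-likelihood), and an exact permutation test gave p = 0.00338. Leaving out WT mouse 14 brought the adjusted p to 0.051, and leaving out mice 29 and 33 together kept the call (−0.28, adjusted p = 0.028).

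The other 2 subunits were not called. *Sucla2* (ENSMUSG00000022110, chr14:73525319-73596142, plus strand) was at 134.2, 177.6 and 217.1 CPM in A226Y and at 160.3, 180.9 and 211.1 CPM in WT mice. Its log2 fold change was −0.01 (95% interval −0.16 to 0.15, adjusted p = 0.961). Its sign turned with library size as the only scaling (0.03). *Suclg1* (ENSMUSG00000052738, chr6:73248382-73276911, plus strand) was at 144.8, 244.4 and 261.7 CPM in A226Y and at 226.8, 248.4 and 273.4 CPM in WT mice. Its log2 fold change was −0.09 (95% interval −0.28 to 0.09, adjusted p = 0.495). A226Y mouse 29 was the lowest of all 18 mice for *Sucla2*, *Suclg1* and *Suclg2*, and without it *Suclg1* had a log2 fold change of −0.03. Without mice 29 and 33 together *Suclg1* was at −0.05 (adjusted p = 0.552) and *Sucla2* at 0.01 (adjusted p = 0.911).

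The balance between the beta subunits was compared as the ratio of *Suclg2* to *Sucla2* counts, which needs no scaling between libraries. The ratio was 0.434, 0.606 and 0.735 in A226Y and 0.599, 0.767 and 0.902 in WT mice. It lay below the WT mean in all 10 A226Y mice and below every WT mouse in 4. The log2 ratio was lower by 0.33 in A226Y, with a difference of −0.33 (95% interval −0.55 to −0.11; exact permutation p = 0.00539, adjusted over 5 ratios 0.0115), and ranged from −0.38 to −0.28 over the fits without 1 mouse. Per length of transcript, *Suclg2* made up 28.4 ± 2.95% of the summed beta-subunit level in A226Y (SD, n = 10) and 33.2 ± 3.35% in WT (SD, n = 8).

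The ratio of *Suclg1* to *Suclg2* moved the other way, with a log2 difference of 0.23 (95% interval 0.08 to 0.39; exact permutation p = 0.00606, adjusted 0.0115) and 6 of 10 A226Y mice above every WT mouse. The ratio of *Suclg1* to *Sucla2* had a log2 difference of −0.10 (95% interval −0.23 to 0.03; exact permutation p = 0.137, adjusted 0.171), so a difference was not shown. *Suclg2* enters both subunit ratios that differed, and the ratios among these subunits are not independent of each other. *Dlst* and *Suclg2*, which belong to successive steps, were also set side by side, as a pair chosen after its values were seen and therefore not tested. The count ratio of *Dlst* to *Suclg2* was 1.73, 2.32 and 3.14 in A226Y and 1.24, 1.52 and 1.79 in WT mice, with 7 of 10 A226Y mice above every WT mouse.

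**Figure D2:**
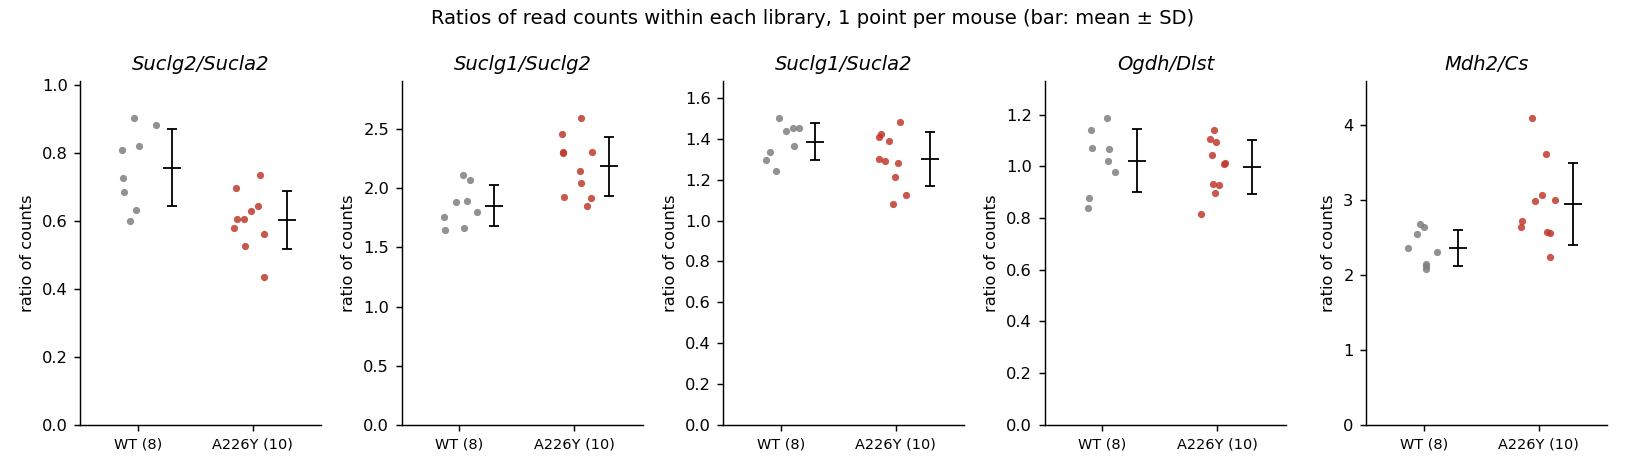
Ratios of read counts within each library (vertical axes, linear and starting at 0) for 5 pairs of members in 8 WT and 10 A226Y mice, 1 point per mouse, with mean and SD. The *Suclg2*/*Sucla2* ratio is lower in A226Y (median 0.606 against 0.767), *Suclg1*/*Suclg2* and *Mdh2*/*Cs* are higher, and *Ogdh*/*Dlst* overlaps throughout.

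*Fh1* (ENSMUSG00000026526, chr1:175600374-175625635, minus strand) encodes fumarase, which hydrates fumarate to malate. Of the 9 members it had the widest spread among the A226Y mice relative to its mean. Its level was 177.4, 236.9 and 426.3 CPM in A226Y and 184.4, 215.6 and 242.6 CPM in WT mice, with SDs of 84.2 (n = 10) and 18.2 (n = 8). Mice 29 (426.3 CPM), 32 (392.5 CPM) and 7 (319.5 CPM) were far above the WT range, while 3 of 10 A226Y mice were below the WT mean. The log2 fold change was 0.33 (SE 0.15, 95% interval 0.03 to 0.64) with an unadjusted p of 0.0348 and an adjusted p of 0.134 (edgeR quasi-likelihood), and it was not called. The exact permutation test gave p = 0.0925. The log2 fold change was 0.24 without mouse 29 (adjusted p = 0.191), 0.25 without mice 29 and 33 together (adjusted p = 0.189) and 0.05 with surrogate variables (adjusted p = 0.881). *Fh1* overlaps *Kmo* on the opposite strand without sharing exon bases in the annotation.

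*Mdh2* (ENSMUSG00000019179, chr5:135778480-135790398, plus strand) encodes the mitochondrial malate dehydrogenase, which closes the cycle by regenerating oxaloacetate. It was at 199.1, 222.0 and 284.6 CPM in A226Y and at 167.4, 204.5 and 228.9 CPM in WT mice. The groups overlapped, with 8 of the 10 A226Y values over the WT mean and 4 above every WT mouse. The log2 fold change was 0.19 (SE 0.08, 95% interval 0.02 to 0.36, adjusted p = 0.113; exact permutation p = 0.0276), short of the threshold. It was called only with the correction for transcript length (0.26, adjusted p = 0.0344) among the alternatives run. With surrogate variables the log2 fold change was 0.0094 (adjusted p = 0.967), and without mice 29 and 33 together it was 0.17 (adjusted p = 0.129). Mice 32 and 7 were the highest A226Y mice for *Mdh2* (284.6 and 280.0 CPM) and also for *Ogdh* (263.4 and 300.9 CPM).

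Oxaloacetate links *Mdh2*, which makes it, to *Cs*, which uses it. The ratio of *Mdh2* to *Cs* counts was 2.24, 2.85 and 4.09 in A226Y and 2.07, 2.33 and 2.67 in WT mice. The log2 ratio was higher in A226Y by 0.31 (95% interval 0.09 to 0.52; exact permutation p = 0.00692, adjusted over 5 ratios 0.0115), with 9 of the 10 A226Y values over the WT mean and 6 above every WT mouse. Neither gene was called on its own. The ratio was not recomputed with mice left out. In the fit with surrogate variables *Mdh2* was at 0.0094 and *Cs* at −0.04.

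**Figure D3:**
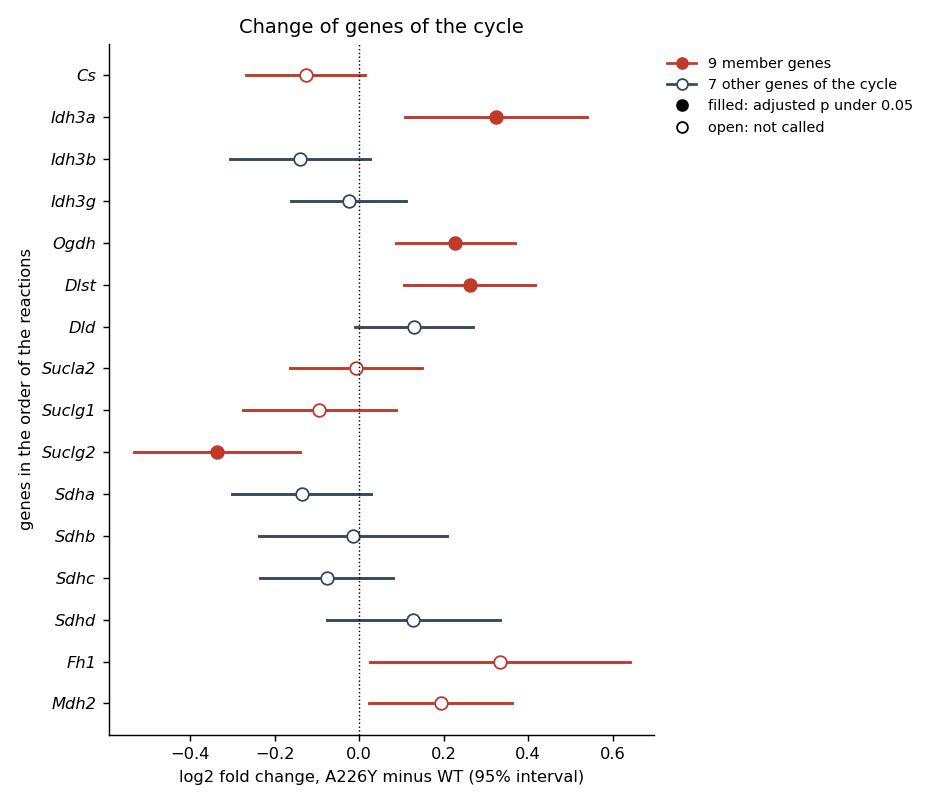
Log2 fold change of A226Y against WT (horizontal axis) with its 95% interval for the 9 members (red) and 7 other genes of the cycle (blue), from the first reaction at the top to the last at the bottom. Filled points had an adjusted p under 0.05, and these are *Idh3a* (0.32), *Ogdh* (0.23), *Dlst* (0.26) and *Suclg2* (−0.34).

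A further 7 genes of the cycle were *Idh3b*, *Idh3g*, *Dld* and the 4 subunits of succinate dehydrogenase, the enzyme shared with the respiratory chain. None was called by edgeR's quasi-likelihood test, by DESeq2 or by limma-voom, and 0 had an unadjusted p under 0.05 in the quasi-likelihood test of all 18 mice. Their median log2 fold change was −0.02. The values were −0.14 for *Sdha* (adjusted p = 0.257), −0.01 for *Sdhb*, −0.08 for *Sdhc* and 0.13 for *Sdhd*. The signs of *Idh3g* and *Sdhb* turned with library size as the only scaling. No test compared the 9 members with these 7 genes.

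Levels were compared between genes only per length, as CPM per kilobase of the longest coding transcript. In WT mice, *Suclg1* (164.3) and *Mdh2* (138.4) were the most abundant members by this measure, and their ranges over the 8 mice overlapped. *Fh1* (81.2), *Sucla2* (81.0) and *Dlst* (74.5) followed with overlapping ranges, and all their values were below the lowest of *Mdh2* (115.0). *Ogdh* (50.6, range 45.2 to 55.9) lay below the lowest *Dlst* value (63.1). *Suclg2* (40.3, highest 44.8) lay below it in turn and overlapped with *Cs* (29.4, range 24.3 to 35.3). *Idh3a* (18.7, highest 24.9) was the least abundant. In A226Y mice *Fh1* was at 102.3 ± 31.9 (SD, n = 10) on this scale, above *Dlst* (89.3 ± 9.42) and *Sucla2* (80.6 ± 9.20), with overlapping ranges. Transcripts of a multi-subunit enzyme can differ in length and isoform use, so this order rests on the transcript chosen.

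**Figure D4:**
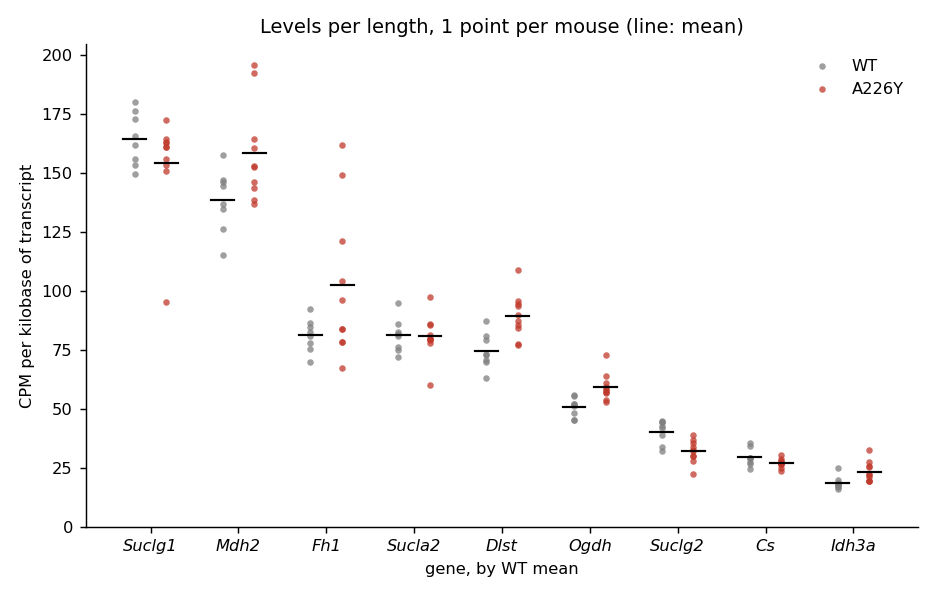
Level of each member per kilobase of its longest coding transcript (vertical axis, CPM per kilobase, linear from 0) in WT (grey) and A226Y (red) mice, 1 point per mouse with the mean as a line, ordered by the WT mean. *Suclg1* and *Mdh2* lie highest (164.3 and 138.4 in WT), and *Idh3a* lowest (18.7).

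How members vary together was examined across the 18 mice after each genotype was centred on its own mean, for 4 pairs. *Suclg1* and *Suclg2* had r = 0.72 (permutation p = 0.00354, adjusted 0.0142) and rho = 0.47 (p = 0.0502). *Suclg1* and *Sucla2* had r = 0.75 (permutation p = 0.0107, adjusted 0.0214) and rho = 0.35 (p = 0.153). Both relations weakened without A226Y mouse 29 and WT mouse 6 together, where r was 0.32 (permutation p = 0.242) and 0.29 (permutation p = 0.315). Neither mouse was left out alone. *Ogdh* and *Dlst* had r = 0.30 (permutation p = 0.245; rho = 0.33, p = 0.199) and r = 0.06 without A226Y mouse 7 and WT mouse 33. *Cs* and *Mdh2* had r = 0.01 (permutation p = 0.959; rho = −0.03, p = 0.91) and r = −0.37 (p = 0.156) without WT mice 24 and 33. Libraries share scaling and overall composition, which enter each of these correlations.

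Outside all the lists used here, the 5 genes with deviations from the genotype means most like the mean of the 9 members, over 18 mice, were *Slc25a3* (Pearson r = 0.92), which encodes the mitochondrial phosphate carrier, *Gfm1* (0.86), a mitochondrial elongation factor, *Ddt* (0.85), *Txn2* (0.83), the mitochondrial thioredoxin, and *Cox8a* (0.82), a subunit of cytochrome oxidase. These r values rank genes and carry no test. None of the 5 was called, and the log2 fold change of *Slc25a3* was 0.08 (SE 0.07, adjusted p = 0.445). Among the members, *Mdh2* (0.83) and *Dlst* (0.76) followed the common mean most closely and *Suclg2* (0.17) least, with each member included in that mean.

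Promoter sequences were read for 8 of the 9 members (not *Idh3a*) from RefSeq windows on GRCm38.p6 that run from 250 bases before to 50 bases after each start. Motifs of transcription factors were searched on both strands, as the letters TGACGTCA (CREB), GCGCANGCG (NRF1), CCGGAAGT (GABP/ETS), AAGGTCA (ERR), CCAAT (NF-Y), AAGATGGCG (YY1) and TCACNCCAC (SREBP). Of all 32851 windows, 1.79% held the CREB, 6.25% the NRF1, 3.89% the GABP/ETS, 4.72% the ERR, 37.4% the NF-Y, 1.40% the YY1 and 1.24% the SREBP letters. *Ogdh* had the CREB, NRF1, ERR and NF-Y letters, *Dlst* the GABP/ETS, *Mdh2* the CREB, *Sucla2* the NRF1, and *Cs*, *Fh1* and *Suclg2* the NF-Y letters. No member window held the YY1 or SREBP letters, and *Suclg1* held none of the 7 motifs. *Ogdh* was searched in 6 windows and every other matched member in 1, so its number of motifs cannot be compared with theirs or with the shares per window. The sites shown are 1 CREB and 1 NRF1 site of *Ogdh*, with those of *Mdh2* and *Sucla2* that share the letters, the *Dlst* site and the NF-Y site of *Suclg2*. The ERR and NF-Y sites of *Ogdh* are not shown. Capitals mark the motif, or its complement where it lies on the other strand, and a match is a description of the letters only.
*Ogdh*, CREB letters (chr11:6291535-6291564, plus strand): acccaattctgTGACGTCAcgtcacgccca
*Mdh2*, CREB letters (chr5:135778511-135778540, plus strand): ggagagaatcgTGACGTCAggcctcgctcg
*Ogdh*, NRF1 letters (chr11:6292533-6292561, plus strand): taggtgttgtGCGCATGCGtaactcaact
*Sucla2*, NRF1 letters on the other strand (chr14:73552760-73552788, plus strand): tgcgtctctgCGCCTGCGCggtgcccagg
*Dlst*, GABP/ETS letters on the other strand (chr12:85110822-85110851, plus strand): cggccggtctcACTTCCGGttgctgccggg
*Suclg2*, NF-Y letters (chr6:95718946-95718974, minus strand): cctttctttttcCCAATtccctcacccca

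The CREB letters were thus in *Ogdh*, which was higher in A226Y, and in *Mdh2*, which was not called. The NRF1 letters were in *Ogdh* and in *Sucla2*, whose log2 fold change was −0.01.

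Genes that supply or drain the cycle were described from lists that hold none of the members. Pyruvate carboxylase (*Pcx*), which makes oxaloacetate from pyruvate, was at 441.8, 511.9 and 599.2 CPM in A226Y and at 555.8, 627.8 and 715.0 CPM in WT mice. It fell by 0.28 on the log2 scale (SE 0.07, adjusted p = 0.0125), with all 10 A226Y mice below the WT mean. *Pcca* and *Pccb*, the subunits of propionyl-CoA carboxylase, which feeds succinyl-CoA into the cycle, fell by 0.29 (SE 0.10, adjusted p = 0.0476) and by 0.29 (SE 0.07, adjusted p = 0.0155). Of the 15 tested genes of refilling and side reactions, the quasi-likelihood test called these 3 lower, 0 higher and 12 not at all. The list had a median log2 fold change of −0.12. DESeq2 called 4 of the list and limma-voom 2, while the quasi-likelihood test called 7.03% of all tested genes lower. *Pcca* lost its call in 13 of the 18 fits that left out 1 mouse. With surrogate variables no gene of this list was called, and *Pcx* was at −0.16 (adjusted p = 0.366), *Pcca* at −0.14 (adjusted p = 0.456) and *Pccb* at −0.15 (adjusted p = 0.241).

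Of 5 tested paralogues that work outside the cycle, the quasi-likelihood test called 3 lower and 0 higher. It called 7.03% of all tested genes lower, and DESeq2 and limma-voom also called 3 paralogues. *Acly*, which splits exported citrate for lipid synthesis, fell by 0.55 (SE 0.12, adjusted p = 0.00531) with a mean of 133.6 ± 28.4 CPM in WT (SD, n = 8) and of 91.4 ± 14.8 CPM in A226Y (SD, n = 10). The cytosolic isocitrate dehydrogenase *Idh1* fell by 0.38 (SE 0.11, adjusted p = 0.0338), and the cytosolic aconitase *Aco1* by 0.28 (SE 0.08, adjusted p = 0.0232). With 1 mouse left out, *Idh1* lost its call in 7 of 18 fits and *Aco1* in 2. With surrogate variables none of these 3 was called, at −0.31 for *Acly* (adjusted p = 0.293), −0.18 for *Idh1* (adjusted p = 0.326) and −0.14 for *Aco1* (adjusted p = 0.471).

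For the pyruvate dehydrogenase complex and its regulators, which control the entry of acetyl-CoA, none of 11 genes was called by edgeR's quasi-likelihood test or limma-voom, and 1 by DESeq2. An unadjusted p under 0.05 was found for 4 of them, 2 higher and 2 lower. The inhibitory kinase gene *Pdk4*, known to rise in fasting, was at 11.7, 13.9 and 44.3 CPM (lowest, median, highest) in A226Y and at 6.33, 13.4 and 21.4 CPM in WT mice. The medians were close, and 7 of the 10 A226Y values lay above the WT mean. Its log2 fold change of 0.81 was the largest of the list but was not called (SE 0.32, adjusted p = 0.0862).

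Of 6 feeding markers, all with a negative log2 fold change (median −0.49), 2 were lower in A226Y, namely *Srebf1* (−1.22) and *Fasn* (−0.68), and 4 were not called, while the list's summed level ran from 877.5 to 2902.2 CPM in A226Y and from 1207.1 to 3993.9 CPM in WT mice. With surrogate variables 0 feeding markers were called and 0 had an unadjusted p under 0.05. Of 7 fasting markers, all with a positive log2 fold change (median 0.30), 0 were called by the quasi-likelihood test, 3 by DESeq2 and 1 by limma-voom, while 4 had an unadjusted p under 0.05, all higher. Their summed level ran from 8145.3 to 18474.7 CPM in A226Y and from 4698.6 to 13015.7 CPM in WT mice. The part of feeding state in the values of the members was not tested.

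Among the markers of cell types, the quasi-likelihood test called 2 of 9 hepatocyte markers higher (*Cps1* and *Tat*) and 1 lower (*Serpina1c*). It called 1 of 7 Kupffer cell markers lower (*Clec4f*) and 3 of 8 stellate cell markers lower (*Col1a1*, *Col1a2* and *Col3a1*). Over all tested genes it called 14.3%. DESeq2 called 5 hepatocyte and 4 stellate cell markers, and limma-voom 3 of each. No sinusoidal endothelial (7), cholangiocyte (6) or lymphocyte marker (8) was called by the quasi-likelihood test, DESeq2 or limma-voom, and 1 of each list had an unadjusted p under 0.05. All 6 cholangiocyte markers had a positive log2 fold change, from 0.17 to 0.53 (median 0.28), and with surrogate variables 1 was called and 3 had an unadjusted p under 0.05. That fit called 0 hepatocyte, Kupffer cell and stellate cell markers. Of the Kupffer cell markers, 6 of 7 had a negative log2 fold change (median −0.42), 3 had an unadjusted p under 0.05 and 2 were called by DESeq2. All 8 lymphocyte markers were negative (median −0.31). The summed Kupffer cell markers ran from 268.7 to 1062.0 CPM in A226Y and from 404.0 to 817.1 CPM in WT mice, the stellate cell markers from 312.5 to 372.3 and from 304.5 to 382.9 CPM, and the hepatocyte markers from 95397 to 162379 and from 104203 to 194395 CPM. No listed marker was at 0 in every library. The part of cell composition in the member values was not tested.

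**Figure D5:**
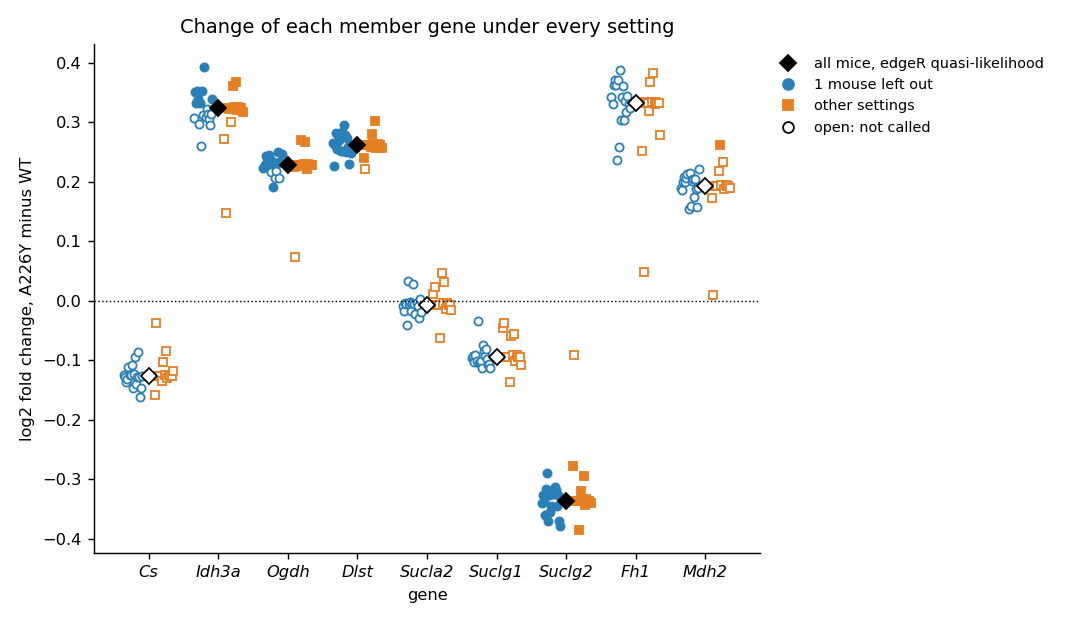
Log2 fold change of each member (vertical axis) with all mice (black diamonds), with 1 mouse left out in turn (blue circles) and under the other settings (orange squares), where filled symbols were called at an adjusted p under 0.05. *Dlst* stays called with any mouse left out, and the open squares nearest 0 for *Ogdh* (0.07), *Idh3a* (0.15) and *Suclg2* (−0.09) are the fit with surrogate variables.

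Of the fits run, the one with surrogate variables gave the smallest change for each of the 4 called members. *Dlst* kept most of its size in that fit (0.22, adjusted p = 0.14), whereas *Idh3a* (0.15, adjusted p = 0.637), *Ogdh* (0.07, adjusted p = 0.637) and *Suclg2* (−0.09, adjusted p = 0.608) came closer to 0. Only 1 member, *Dlst*, had an unadjusted p under 0.05 there (0.00418). With DESeq2, limma-voom, edgeR's likelihood ratio and robust tests, and the other scalings, the same 4 members were called. *Idh3a* missed the threshold without a filter beyond 1 count (adjusted p = 0.0514) and with the correction for GC content (adjusted p = 0.0624), while *Ogdh*, *Dlst* and *Suclg2* were called in both.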

How the data were processed

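Whole-liver RNA of 18 female mice (10 A226Y, 8 WT) was sequenced as single-end short reads with 1 library per mouse, and groups were taken from the sample labels. The authors deposited a whole-number count of reads per Ensembl gene for each mouse, without normalization. How the counts were made is described differently in the sources: the paper's methods name RSEM with an Ensembl annotation, and the submitters' processing notes name fastp, STAR, featureCounts and GRCm38. No source used here states strand, so overlapping genes were checked. Symbols, coordinates and transcript lengths came from GENCODE M21 (GRCm38), which matched 22291 of 22524 identifiers.

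From these counts, the 13353 genes that reached 10 counts in 50% or more of the A226Y or of the WT mice were tested with edgeR 4.0.16 in R 4.3.3, by TMM scaling and the two-sided quasi-likelihood test without covariates, with Benjamini-Hochberg adjustment over all tested genes and a threshold of 0.05. SEs of log2 fold changes were derived from the F statistic. CPM values were scaled with TMM. Single members and ratios were compared by two-sided exact permutation tests of the difference in means, of log2 CPM with a prior count of 2 or of the log2 count ratio, over all 43758 divisions into 10 and 8. Correlations used 100000 resamples and were adjusted over 4 pairs. At the lowest total of 23850565 counts, counting error is small for every member, and the spread between mice sets the precision. No pair of libraries of one genotype agreed within sampling noise (chi-square per degree of freedom at least 19.2). P-values of comparisons between genotypes set the difference against the spread between mice of each genotype.

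The members and the gene lists were chosen with earlier results of these data known. The genes named are the 9 members, 7 other genes of the cycle, *Rps2*, the called genes of each pathway list (or its largest change where none was called) and the 5 genes most like the members' mean over 18 mice; called markers were named after their values were seen. Alternatives were the scalings RLE, upper quartile and library size only, 3 other filters, DESeq2 1.42.0, limma-voom (limma 3.58.1), edgeR's likelihood ratio and robust tests, 4 surrogate variables (sva 3.50.0), lowess offsets for transcript length or for GC content, a pseudocount of 10 in the ratio, leaving out each mouse, and leaving out A226Y mouse 29 and WT mouse 33 together, the last added after seeing the data. The fits were tested on simulated counts. *Rps2*-loxP mice were not analysed here, and a few listed genes are not reported.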

Additional observations from a re-analysis of the deposited data

Results flagged for a closer look

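Of 80 groups of values tested for a mouse far from the others of its genotype, by the gap to the nearest value against the whole range, 10 stood out, where chance flags about 1 in 20. Of these, 8 were low values of A226Y mouse 29, whose library had the lowest mean correlation with the others. They were *Sucla2* at 134.2 CPM (next lowest 173.8), *Suclg1* at 144.8 CPM (229.1), *Idh3b* at 120.5 CPM (157.3), *Dld* at 144.6 CPM (176.6), *Sdha* at 321.4 CPM (421.6), *Sdhd* at 177.1 CPM (267.6), *Pcca* at 38.7 CPM (55.6) and *Vdac1* at 149.5 CPM (175.1). The same mouse had the highest *Fh1* value of all mice, 426.3 CPM. The others were *Idh3a* in WT mouse 13, high at 64.1 CPM (next highest 51.6), and *Sdhb* in A226Y mouse 23, high at 294.8 CPM (next highest 223.5).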

How the results depend on the processing

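With surrogate variables 50 genes and 0 members were called (1 member at an unadjusted p under 0.05), against 1910 and 4. With 1 mouse left out the counts ran from 1255 to 2560 genes and from 1 to 4 members, with 1 member without WT mouse 14. Library size as the only scaling called 2059 genes, 67.9% of them higher against 50.8%, and shifted the median of all genes by 0.04. The members called numbered between 3 and 5 under the other settings. Without mice 29 and 33 together 2363 genes and 3 members were called. The causes of these changes were not tested. Changes near 0 turned in sign. *Sucla2* turned positive without mice 29 and 33 (0.012), with surrogate variables (0.023), with the length offset (0.047) and with library size only (0.032). *Idh3g* did so with surrogate variables (0.043), the length offset (0.036) and library size only (0.015), and *Sdhb* with surrogate variables (0.0068), the GC offset (0.041), the length offset (0.063) and library size only (0.025). *Slc25a3* turned negative with surrogate variables (−0.0067) and *Cox8a* positive with the length offset (0.0105). With 1 mouse left out, *Sucla2* ran from −0.0399 to 0.0331, *Idh3g* from −0.063 to 0.0031 and *Sdhb* from −0.083 to 0.033. Without the 2 mice farthest from the median, r was 0.32 for *Suclg1* and *Suclg2*, 0.29 for *Suclg1* and *Sucla2*, and −0.37 for *Cs* and *Mdh2*. The *Suclg2* to *Sucla2* ratio kept its direction and call with a pseudocount of 10 and with each mouse left out. The ratio was not computed with surrogate variables, where *Suclg2* was at −0.09 and *Sucla2* at 0.023. No paired analysis was possible because the mouse numbers in the labels are not shared between the genotypes. Depth did not limit any member, since each had at least 1142 counts in every library.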

Other observations

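*Ppargc1a*, the coactivator known to drive mitochondrial gene transcription, was at 14.4, 19.2 and 30.1 CPM (lowest, median, highest) in A226Y and at 9.67, 12.7 and 19.7 CPM in WT mice. It was higher in A226Y with a log2 fold change of 0.74 (SE 0.16, adjusted p = 0.00539, edgeR quasi-likelihood), with all 10 A226Y mice above the WT mean. It was the only one called of 8 regulators of mitochondrial genes, a list with a median log2 fold change of 0.04, where 14.3% of all tested genes were called. With surrogate variables its log2 fold change was 0.19 (adjusted p = 0.388).

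Of 8 tested carriers of cycle substrates, the quasi-likelihood test called 2, DESeq2 4 and limma-voom 1. The quasi-likelihood test called 14.3% of all tested genes. In that test *Slc25a12*, an aspartate and glutamate carrier, was higher (0.31, SE 0.09, adjusted p = 0.0312) and *Slc25a10*, the dicarboxylate carrier, lower (−0.30, SE 0.10, adjusted p = 0.0488). *Slc25a12* lost its call in 4 of 18 fits with 1 mouse left out and in 3 of 14 other settings, and *Slc25a10* in 12 of 18 and 7 of 14. Of 8 genes of lipoate synthesis and succinate dehydrogenase assembly, *Mecr* (−0.22, SE 0.05, adjusted p = 0.0112) and *Lipt2* (−0.31, SE 0.10, adjusted p = 0.0403) were lower, both with all 10 A226Y mice below the WT mean. *Lipt2* lost its call in 11 of 18 fits with 1 mouse left out and in 5 of 14 other settings, and *Mecr* in 0 of 18 and 1 of 14. Lipoate is the cofactor carried by the *Dlst* protein. Of 13 markers of mitochondrial mass, 1 was called, *Vdac1*, the outer membrane channel (−0.21, SE 0.07, adjusted p = 0.0451), in a list with a median log2 fold change of 0.02. *Vdac1* lost its call in 12 of 18 fits with 1 mouse left out and in 7 of 14 other settings. With surrogate variables no gene of these 3 lists was called.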
